A study of Mus musculus with 4 samples.

Results

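Lin28 proteins, the ubiquitin ligase Trim71 and the enzymes that make and use microRNAs were followed in mouse E14 embryonic stem cells given valproic acid (VPA). The 10 genes (Lin28a, Lin28b, Trim71, Drosha, Dgcr8, Dicer1, Xpo5, Ago1, Ago2 and Tarbp2) were chosen by name, as probe sets whose platform annotation gives exactly that symbol. All 10 were present, with 12 probe sets, among 19938 genes represented on the array. Where a gene had several probe sets, the one with the highest mean over the 4 arrays stood for it, and the others are given beside it.

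The series holds 4 one-colour Affymetrix arrays of total RNA, 2 from untreated E14 cells and 2 from E14 cells given 0.5 mM VPA in the medium for 4 h. VPA, a branched-chain carboxylic acid used as a drug, blocks histone deacetylases, and the question behind the series is what little of it does to transcript levels within hours. Both groups grew in serum with leukemia inhibitory factor on embryonic fibroblasts treated with mitomycin C, so RNA of feeder cells could be in every sample. The arrays are labelled as replicates of 1 line with no mention of separate cultures, so the p-values rest on array-to-array spread that may be technical.

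MicroRNAs are cut from long transcripts in the nucleus by the Microprocessor, formed by the nuclease Drosha and its RNA-binding partner Dgcr8. Exportin 5 (Xpo5) carries the precursor hairpin to the cytoplasm, where Dicer1, helped by Tarbp2, trims it to a duplex. One strand is then loaded into an Argonaute protein such as Ago1 or Ago2. In pluripotent cells Lin28a and Lin28b bind the precursors of the let-7 family and keep them from maturing. Trim71 (Lin41) is a conserved let-7 target that is itself abundant in early embryos and stem cells.

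The RNAs on which this pathway turns are shown because the lists tested beside the members are defined by them. The mature sequences below, 5′ to 3′ from the RefSeq table of GRCm38.p6, have the seed (bases 2 to 8) in capitals. All 9 let-7 family 5p sequences in the table share 1 seed, and the stem-cell miR-290 family members shown after them share another.
mmu-let-7a-5p: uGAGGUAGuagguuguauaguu
mmu-let-7d-5p: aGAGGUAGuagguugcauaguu
mmu-let-7g-5p: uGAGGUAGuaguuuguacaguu
mmu-miR-98-5p: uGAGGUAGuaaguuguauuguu
mmu-miR-294-3p: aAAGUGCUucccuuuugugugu
mmu-miR-295-3p: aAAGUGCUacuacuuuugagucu

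Lin28 is known to contact a GGAG tetranucleotide in the loop side of let-7 precursors. The letters GGAG, searched on the transcribed strand only, were present in 9 of 12 let-7 family hairpins and in 44.5% of all 1005 mouse hairpins in the table. A let-7 hairpin with the tetranucleotide (capitals) and 2 without it are given with their GRCm38.p6 positions. Mirlet7g lies at chr9:106178840-106178927 (+), Mirlet7b at chr15:85707319-85707403 (+) and Mir98 at chrX:151913214-151913321 (+). A match describes these letters and is not evidence of binding in these cells.
Mirlet7g hairpin: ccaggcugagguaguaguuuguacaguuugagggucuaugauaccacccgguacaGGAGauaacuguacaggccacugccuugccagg
Mirlet7b hairpin: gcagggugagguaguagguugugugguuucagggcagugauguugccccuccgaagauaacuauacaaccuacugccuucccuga
Mir98 hairpin: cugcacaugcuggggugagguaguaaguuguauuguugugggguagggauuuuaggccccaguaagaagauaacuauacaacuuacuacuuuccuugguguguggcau

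Signals were on the log2 scale for 35556 probe sets, with array medians between 3.80 and 3.82. Subtracting one array from another gave an SD, over probe sets, of 0.311 within the untreated group and 0.285 within the VPA group. Between groups it ran from 0.297 to 0.360, with both of the larger values involving untreated replicate 2. All 10 embryonic stem cell markers examined were bright in untreated cells, between percentiles 90.8 and 99.7 of probe sets. Of 17 fibroblast feeder markers 16 were represented, with a median percentile of 62.8 and a range from 1.55 (Lum) to 94.1 (Sparc). The median percentile was 49.9 for 9 primitive endoderm markers and 60.6 for 8 trophoblast markers. An array signal has no zero, so a low percentile marks a dim probe set and not an absent RNA.

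With VPA, Lin28a and Trim71 had the largest differences of the 10 genes and both were lower, at 0.791 and 0.823 of their untreated linear signal. The Microprocessor nuclease gene Drosha and the Dicer partner gene Tarbp2 were lower by smaller amounts, and Dicer1, Xpo5 and Lin28b had slightly higher means. Dgcr8, Ago1 and Ago2 had slightly lower means. For these genes, and for Dicer1, Xpo5 and Lin28b, the untreated arrays lay farther apart than the group means. No member passed the test across all probe sets: limma called 0 of 10 at a Benjamini-Hochberg adjusted p under 0.05, against 0% of all 35556 probe sets. At an unadjusted p under 0.05, 1 member was lower (Lin28a) and 0 were higher, where 2.71% of represented genes were lower and 5.9% higher. With 1 array left out, the difference of Lin28a ran from −0.40 to −0.28 on the log2 scale.

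Of the 10 members, 7 had a lower and 3 a higher mean with VPA, and their median difference was −0.089 on the log2 scale, beside 0.015 over all represented genes. The members' median was −0.14 without untreated replicate 1 and −0.039 without VPA replicate 1. The groups did not overlap and were lower with VPA for 4 members (Lin28a, Trim71, Drosha and Tarbp2), where 18.1% of represented genes did so. They did not overlap and were higher for 2 members (Dicer1 and Xpo5), where 24.1% of genes did so. The count of lower members without overlap was 7 without untreated replicate 1, where a single untreated array makes the criterion easier to meet for any gene. The share of represented genes in that setting is not given, so this count cannot be set beside the 18.1%. For each member whose groups did not overlap the two-sided exact permutation p was 0.333, the smallest that 2 arrays per group allow.

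**Figure D1:**
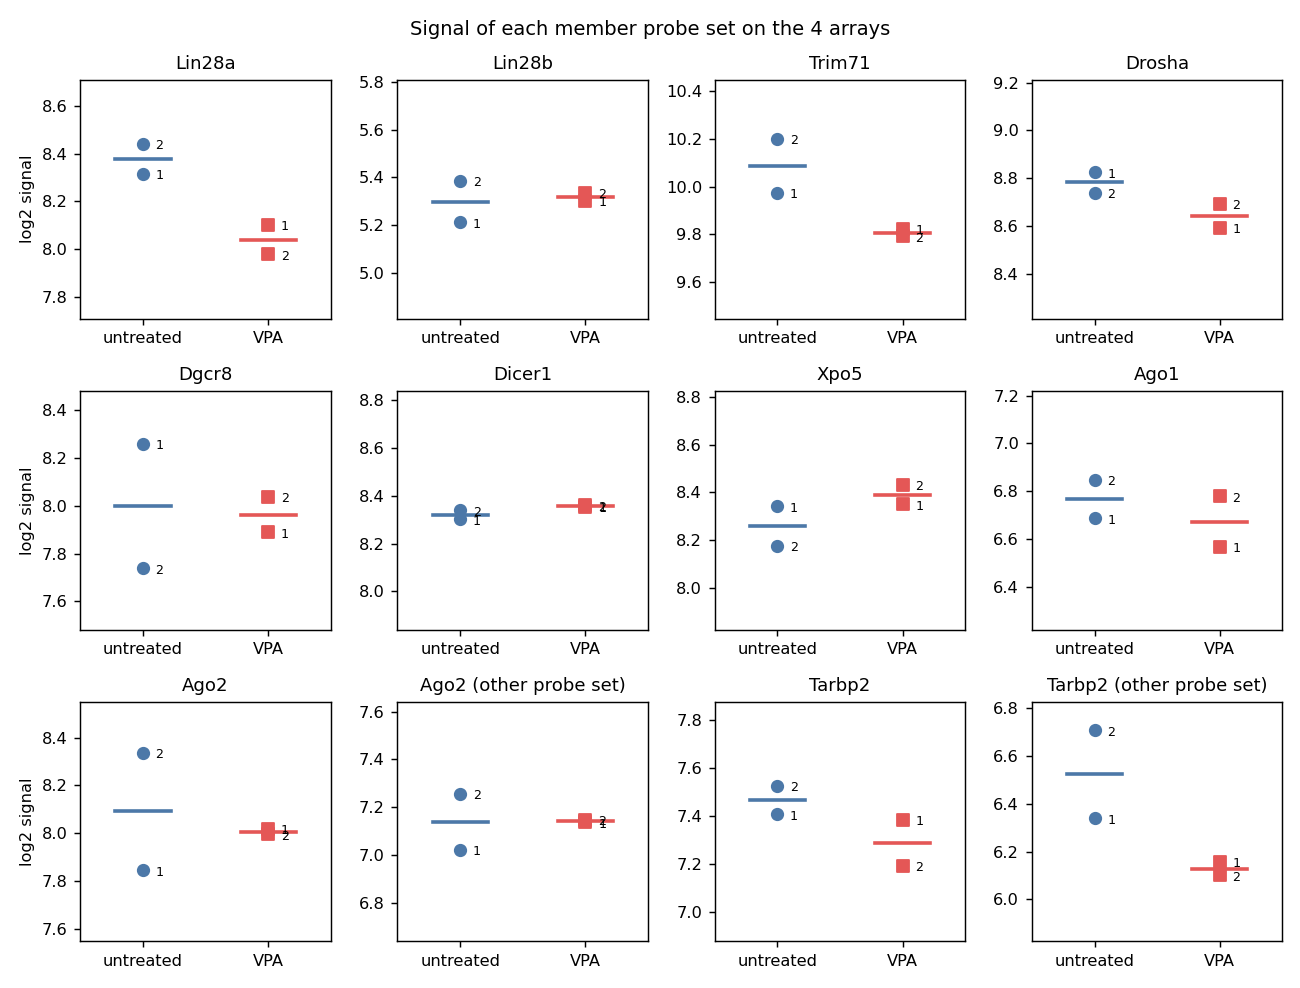
Log2 signal (y axis) of the 12 member probe sets on each array, with untreated arrays as blue circles, VPA arrays as red squares, replicate numbers beside them and group means as bars; every panel spans 1 log2 unit. Lin28a and Trim71 lie lower on both VPA arrays than on either untreated array, whereas the untreated arrays of Dgcr8 and Ago2 lie farther apart than the group means.

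Among the let-7 blockers, Lin28a (probe set 10517159) read 8.32 and 8.44 in untreated cells and 8.10 and 7.98 with VPA. Both VPA arrays were thus below both untreated arrays, and the gap between groups exceeded the gap of 0.12 within either group. The difference was −0.34 ± 0.12 (SE, n = 2 per group; limma unadjusted p = 0.035, adjusted p = 0.518), or a 1.26-fold higher linear signal in untreated cells. Its 95% interval ran from −0.64 to −0.035. Of all represented genes, 9.92% had a larger absolute difference. In untreated cells the probe set lay at percentile 90.7 of all probe sets.

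Lin28b, the paralog of Lin28a with the same action on let-7, gave 5.21 and 5.39 in untreated and 5.30 and 5.34 in VPA cells. The VPA arrays lay between the untreated ones. The difference was 0.020 ± 0.12 (SE; adjusted p = 0.974 in limma), with an interval from −0.28 to 0.32 that spans 0.822-fold to 1.25-fold. Its sign turned after a second quantile normalization (−0.034). Its probe set lay at percentile 67.2, the dimmest of the members. Signals of different probe sets depend on their probes, so this is no measure of how much Lin28b there was beside Lin28a. Whether the response of Lin28a differed from that of Lin28b was not tested.

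Trim71 (10597427) read 9.97 and 10.20 in untreated cells and 9.82 and 9.79 with VPA. The groups did not overlap, but the untreated arrays were 0.23 apart and the VPA arrays only 0.031. The difference was −0.28 ± 0.13 (SE; unadjusted p = 0.078, adjusted p = 0.573 in limma), with an interval from −0.61 to 0.045. Without untreated replicate 2, the highest array, it was −0.17, and without untreated replicate 1 it was −0.39. The probe set lay at percentile 96.7 in untreated cells.

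In the Microprocessor, Drosha (10423185) gave 8.83 and 8.74 in untreated and 8.59 and 8.69 in VPA cells. The lower untreated array was just above the higher VPA array. The difference was −0.14 ± 0.11 (SE; adjusted p = 0.751 in limma), with an interval from −0.43 to 0.15. Dgcr8, which holds the hairpin for Drosha, read 8.26 and 7.74 in untreated cells and 7.89 and 8.04 with VPA. The untreated arrays enclosed the VPA arrays and were 0.52 apart, so the difference of −0.035 ± 0.20 (adjusted p = 0.973) was far inside the replicate spread. Leaving out untreated replicate 2 made it −0.30, and leaving out untreated replicate 1 made it 0.23.

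For export and dicing, the means with VPA were slightly higher. Xpo5 (10445458) gave 8.34 and 8.18 in untreated and 8.35 and 8.43 in VPA cells. Untreated replicate 1 and VPA replicate 1 were nearly equal, and the difference was 0.13 ± 0.12 (SE; adjusted p = 0.777 in limma). Dicer1 (10402444), the cytoplasmic nuclease and a reported let-7 target, read 8.30 and 8.34 in untreated cells and 8.35 and 8.36 with VPA. The arrays covered a range of less than 0.1, and the difference of 0.037 ± 0.10 (adjusted p = 0.946) had an interval from 0.852-fold to 1.24-fold. Its sign turned after a second quantile normalization (−0.0096).

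Tarbp2, which steadies Dicer1 on its substrates, had 2 probe sets annotated to it, and both read lower with VPA. The brighter (10427255) gave 7.41 and 7.53 in untreated and 7.38 and 7.19 in VPA cells. Here the groups were separated by little, since untreated replicate 1 and VPA replicate 1 nearly coincided, and the difference was −0.18 ± 0.13 (SE; adjusted p = 0.719 in limma). The dimmer (10544497) gave 6.34 and 6.71 against 6.16 and 6.10. Its difference was −0.39 ± 0.16 (unadjusted p = 0.055, adjusted p = 0.545), so the size depended on the probe set. With both averaged the difference was −0.29. Whether the dimmer probe set measures the Tarbp2 locus could not be checked without probe sequences, so its value and the average may not be those of Tarbp2.

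The Argonautes showed no separation of the groups. Ago1 (10516371) read 6.69 and 6.85 in untreated and 6.57 and 6.78 in VPA cells, a difference of −0.094 ± 0.13 (SE; adjusted p = 0.871 in limma). Ago2, the Argonaute able to cleave its target, read 7.85 and 8.34 in untreated and 8.02 and 7.99 in VPA cells on probe set 10429329. The VPA arrays lay inside the wide untreated range. Its difference was −0.084 ± 0.19 (adjusted p = 0.928), and the other probe set (10429327) gave 0.0031 ± 0.13. Without untreated replicate 2 the difference of Ago2 was 0.16 and without untreated replicate 1 it was −0.33.

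**Figure D2:**
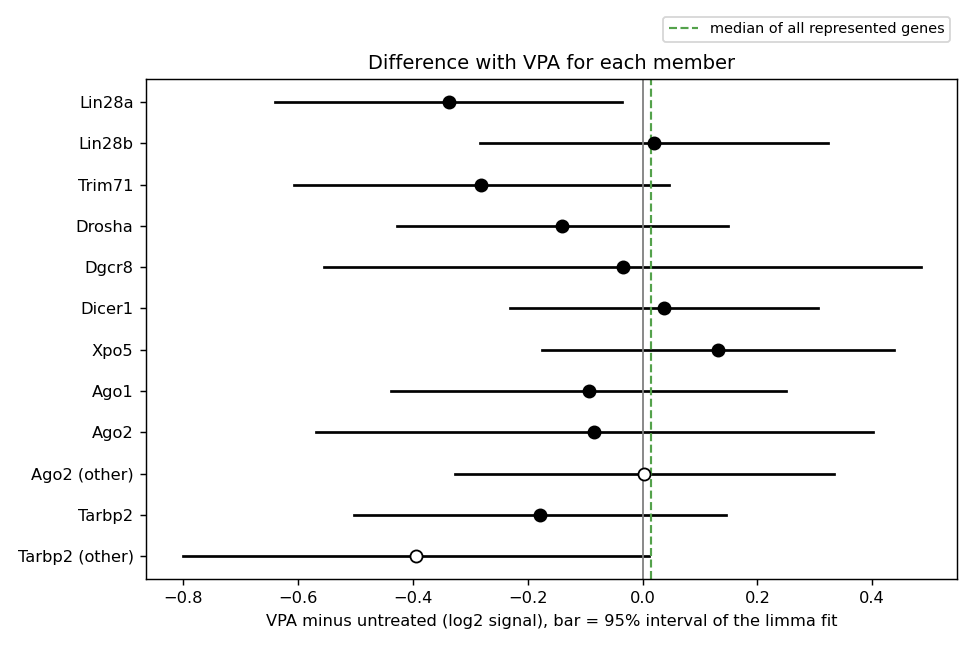
Difference of VPA minus untreated (x axis, log2 signal) for each member probe set, with filled points for the representing probe set, open points for the other one, bars for the 95% interval of the limma fit, and a dashed line at the median of all represented genes (0.015). The interval of Lin28a lies below 0, and the intervals of the other probe sets include 0.

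These intervals set what could be seen. On the representing probe sets, 8 of 10 members had a 95% interval within a 1.5-fold change either way. All 10 had one within a 2-fold change. The largest change inside any of these intervals was 1.56-fold, for Lin28a, whose interval reached down to 0.641 of the untreated linear signal. The interval of the dimmer Tarbp2 probe set (10544497), not counted here, reached lower, to 0.574 of it. Untreated replicate 2 was the highest or lowest array for 8 of 10 members, untreated replicate 1 for 5, VPA replicate 1 for 2 and VPA replicate 2 for 5. The matching shares of all genes are not given, so these counts are not read as particular to the members. The gap between the untreated arrays was larger than the treatment difference for 6 of 10 members and for 56.3% of represented genes.

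Markers of the stem cells and of other cell types were read on the same arrays. Nanog, a core pluripotency factor, read 10.88 and 10.65 in untreated and 10.18 and 10.39 in VPA cells (adjusted p = 0.503 in limma). Utf1 differed by −0.33 ± 0.12 (SE; adjusted p = 0.515). Of the 10 stem cell markers 6 had a lower and 4 a higher mean, with Sox2 at 0.20 ± 0.19 and Pou5f1 at −0.11 ± 0.14 (SE). Without overlap 4 were lower and 1 higher, beside 18.1% and 24.1% of represented genes. The summed linear signal of these 10 markers ran from 17368 to 19275 in untreated and from 17879 to 18328 in VPA cells. The summed signal of the 16 feeder markers ran from 1121 to 1192 in untreated and from 998 to 1047 in VPA cells, with 12 markers lower and 4 higher, led by Ccdc80 (−0.31) and Thy1 (0.31). Sparc (−0.26), by far the brightest of these markers at percentile 94.1, weighs most in this sum. The summed signal of the 9 primitive endoderm markers was 325.4 on both untreated arrays and 283.9 and 289.2 with VPA. Of these markers 6 were lower and 3 higher, led by Gata6 (−0.42) and Sox7 (−0.59), with Dab2 the other way (0.36). Lama1 (−0.25), the brightest of them at percentile 84.7, weighs most in their sum, which is thus no measure of the list as a whole. The 8 trophoblast markers ran from 233.2 to 242.5 in untreated and from 213.5 to 271.2 in VPA cells, with Hand1 at −0.25 and Krt18 at 0.24. The part of these cell types in the differences of Lin28a and Trim71 was not tested, and fewer cells of a type and less RNA per cell cannot be told apart in such bulk RNA.

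The genes nearest to Lin28a in pattern were sought over the 4 arrays, after centring each gene on its mean. The 3 nearest were Cbfa2t3 (root mean square distance 0.0090 log2 units), Crlf2 (0.0093) and Trpc5 (0.0093). Their differences were −0.34, −0.34 and −0.33. With 4 arrays and 19938 genes such close neighbours are a description of these arrays.

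Around the members, other genes of the pathway were taken from lists. The 9 represented nuclear processing and export partners (of 12 names) had 5 higher and 4 lower means and a median of 0.00044. Limma called 0 of them, with 1 higher and 1 lower at an unadjusted p under 0.05. Khsrp, which binds the let-7 precursor loop and promotes its processing, read 8.84 and 9.03 in untreated and 8.51 and 8.56 in VPA cells. Its difference of −0.40 ± 0.12 (SE; unadjusted p = 0.021, adjusted p = 0.503) put both VPA arrays below both untreated ones. The cap-binding subunit Ncbp2 gave 8.17 and 8.18 against 8.48 and 8.47, a difference of 0.30 ± 0.10. Its partner Ncbp1 (0.19 ± 0.11) and the double-stranded RNA-binding factor Ilf2 (0.13 ± 0.10) differed by less.

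Among 19 Argonaute partners and silencing effectors, 13 had higher and 6 lower means with a median of 0.028. Limma called 0, with 2 higher and 0 lower at an unadjusted p under 0.05. The cytoplasmic exonuclease gene Xrn1 gave 6.69 and 6.65 in untreated and 7.09 and 7.03 in VPA cells, a difference of 0.39 ± 0.11 (SE; adjusted p = 0.487). The Argonaute-binding scaffold paralogs went different ways without passing the test: Tnrc6b differed by 0.34 ± 0.12, Tnrc6c by −0.22 ± 0.11 and Tnrc6a by −0.20 ± 0.12. For each of these paralogs the groups did not overlap.

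The 8 represented enzymes that tail or degrade precursors had 5 higher and 3 lower means and a median of 0.0022, and limma called 0, with 0 in either direction at an unadjusted p under 0.05. Tut4, the terminal uridylyltransferase that acts with Lin28a on let-7 precursors, read 8.08 and 7.91 in untreated and 8.24 and 8.33 in VPA cells. The groups did not overlap, and the difference was 0.29 ± 0.12 (SE; adjusted p = 0.554 in limma). Tut7, its paralog, overlapped between groups at 0.061 ± 0.14, a sign that turned after a second quantile normalization. The nuclease gene Zc3h12a differed by −0.21 ± 0.11 and the nuclear exonuclease gene Xrn2 by −0.098 ± 0.13.

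The list of reported let-7 targets holds no member, so Trim71 (−0.28) and Dicer1 (0.037), named above as let-7 targets, are not counted in it. Of 20 reported let-7 targets in the list 16 were represented, with 8 higher and 8 lower means and a median of 0.021. Limma called 0, with 0 higher and 2 lower at an unadjusted p under 0.05. Those were the growth regulators Mycn, at 8.83 and 8.81 in untreated and 8.16 and 8.11 in VPA cells, and Myc, at 7.35 and 7.70 against 6.97 and 6.81. Their differences were −0.68 ± 0.10 and −0.64 ± 0.16 (SE; adjusted p = 0.462 and 0.480). The cell cycle kinase gene Cdk6 (−0.19 ± 0.13) and the chromatin protein gene Arid3b (0.17 ± 0.12) followed. Without VPA replicate 1 these values were −0.31 and 0.094, and without VPA replicate 2 that of Cdk6 was −0.070. Igf2bp1, an RNA-binding let-7 target named here after its values were seen, had probe sets that disagreed in size, with −0.15 ± 0.11 on the brighter and −0.44 ± 0.12 on the dimmer.

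The let-7 hairpins were dim on this array. Of 12 family members 10 had a probe set of their own, with a median percentile of 25.6 in untreated cells and a highest of 64.3 (Mirlet7d). Limma called 0, with 0 in either direction at an unadjusted p under 0.05, and their median difference was 0.024. That median was 0.092 without untreated replicate 1, −0.013 without untreated replicate 2, 0.039 without VPA replicate 1 and −0.014 without VPA replicate 2. It was −0.15 with the dimmer probe sets left out, a setting that kept only Mirlet7d (−0.27) and Mirlet7i (−0.039). Mirlet7a-2 differed by 0.17 ± 0.13 and Mirlet7f-2 by 0.13 ± 0.10 (SE). A hairpin probe set does not report the mature microRNA, so let-7 maturation was not measured here.

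**Figure D3:**
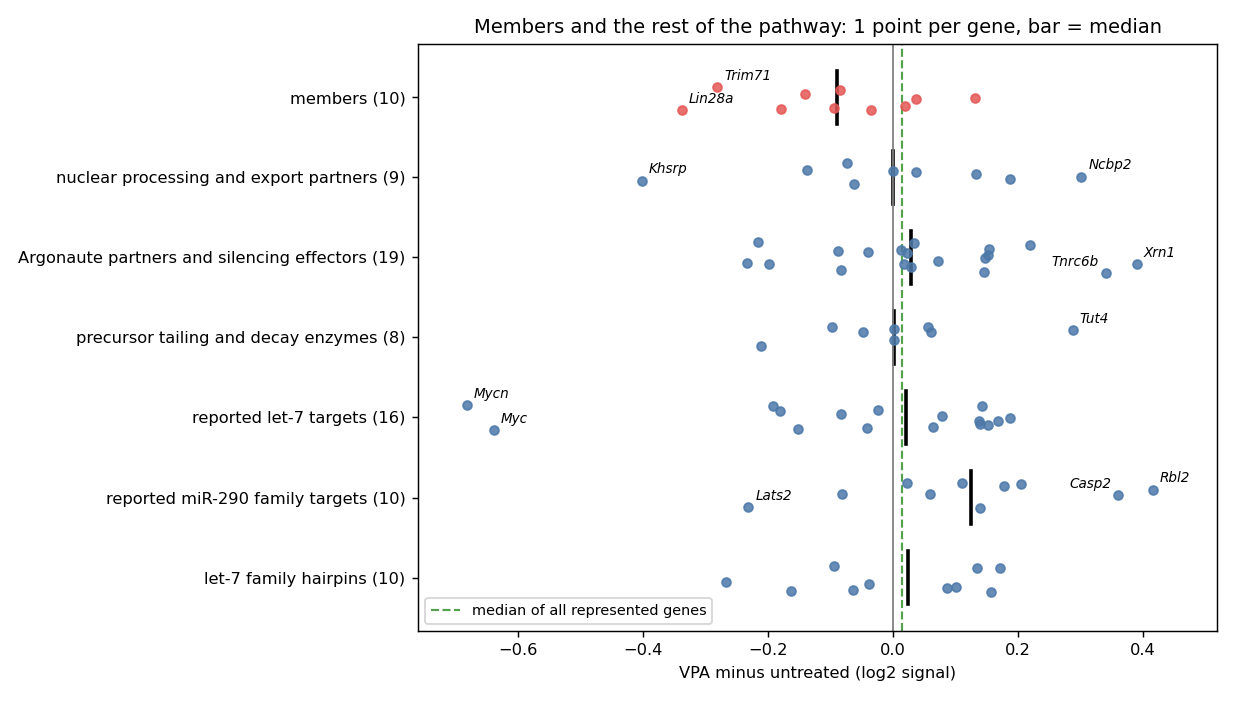
Difference of VPA minus untreated (x axis, log2 signal) for each represented gene of the members (red) and of 6 lists of pathway genes (blue), with the number of genes in brackets, a black bar at each median and a dashed line at the median of all represented genes. The members' median is −0.089, that of reported miR-290 family targets 0.13, and those of the other lists lie between 0.00044 and 0.028.

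Start windows of the 2 genes with the largest differences are shown to set them beside the other members. RefSeq windows of 250 bases before a transcript start were found for 9 of 10 members (GRCm38.p6). The windows of Lin28a (labelled promoter below), Lin28b and Tarbp2 lie wholly inside the RefSeq span of their gene, past its outermost start. They are thus not the sequence upstream of the gene, and their letters are not comparable with those of Trim71 or Xpo5, whose windows end at the gene's edge. Lin28a held 7 CpG dinucleotides and Lin28b 6, close to the median of 6 over 32851 windows, and Trim71 held 17. The other members with a window had 18 (Tarbp2) to 39 (Dicer1). The GC box GGGCGG or its complement CCGCCC was in the windows of Trim71, Dgcr8, Dicer1, Xpo5, Ago1 and Tarbp2, against 32.7% of all windows. It was not found in those of Lin28a, Lin28b and Drosha. The E-box CACGTG was in no member's window except that inside Lin28b (6.02% of windows). TATAAA, on either strand, was in none of the members' windows (12.4%). The GC box is in capitals. These letters describe the windows and say nothing of which factors bind there.
Lin28a promoter, chr4:134018817-134019066 (−): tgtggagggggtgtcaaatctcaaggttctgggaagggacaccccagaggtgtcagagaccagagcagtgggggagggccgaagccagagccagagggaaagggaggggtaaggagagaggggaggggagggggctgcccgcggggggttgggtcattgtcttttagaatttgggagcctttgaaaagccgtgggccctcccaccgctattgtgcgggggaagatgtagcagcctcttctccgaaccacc
Trim71 promoter, chr9:114564370-114564619 (−): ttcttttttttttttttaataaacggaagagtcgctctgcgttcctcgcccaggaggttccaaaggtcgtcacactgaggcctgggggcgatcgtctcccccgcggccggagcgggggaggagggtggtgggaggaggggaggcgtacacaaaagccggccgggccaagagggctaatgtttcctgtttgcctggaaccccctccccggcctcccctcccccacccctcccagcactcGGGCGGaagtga

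**Figure D4:**
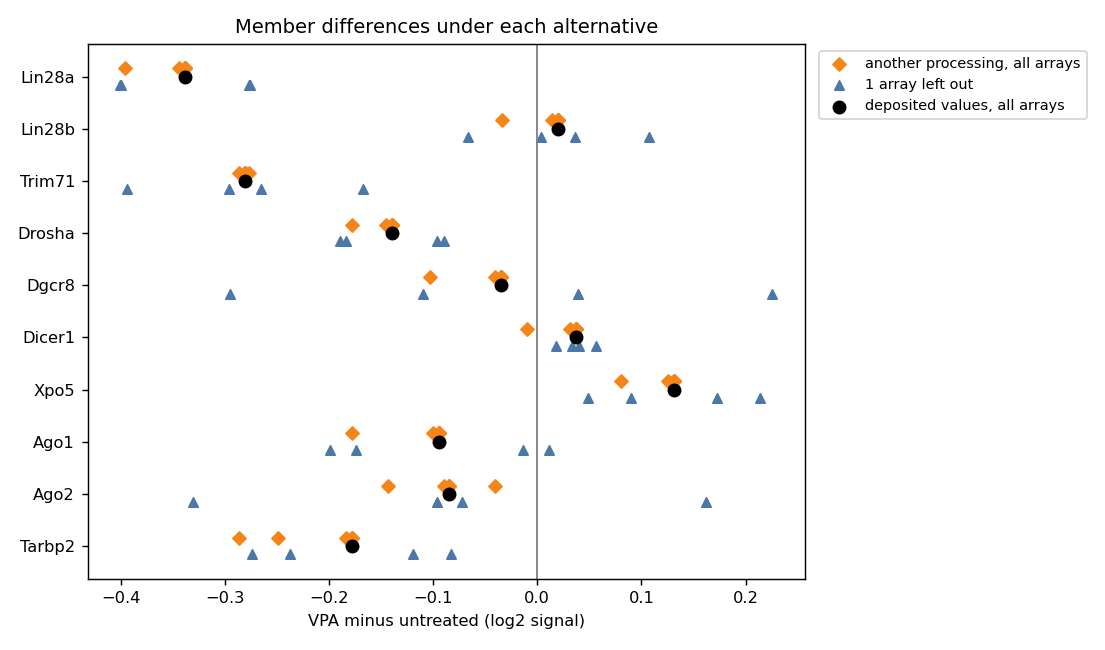
Difference of VPA minus untreated (x axis, log2 signal) for each member on the deposited values (black circles), under another processing of all arrays (orange diamonds) and with 1 array left out (blue triangles). Lin28a, Trim71, Drosha and Tarbp2 stay below 0 and Xpo5 above 0 in all settings shown, while Lin28b, Dgcr8, Dicer1, Ago1 and Ago2 take both signs.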

How the data were processed

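Per the submitters' processing notes the authors ran RMA in Affymetrix Expression Console 1.1, and the deposited log2 signals were used unchanged. The set of arrays normalized jointly is not given in the sources consulted. RMA corrects background, quantile-normalizes arrays and summarises probes, so a shift common to all genes would be removed. Of 35556 probe sets, 21789 had 1 gene symbol in the platform annotation, 1621 several and 12146 none.

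The comparison used limma 3.58.1 (lmFit, then eBayes) under R 4.3.3 on all probe sets, two-sided, with treatment as the only term and Benjamini-Hochberg adjustment over all probe sets at 0.05. The fit had 2 residual degrees of freedom, to which moderation added 2.93. A check of the fit on simulated arrays used only changes larger than any member's difference, so it does not cover differences as small as these. The number of arrays limits the precision.

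The members and lists were chosen with earlier results of these data known. Genes named by rule are the members, the 4 of smallest p in each pathway list (2 in marker lists and hairpins) and the 3 nearest in pattern to Lin28a. Sox2, Pou5f1, Lum, Sparc, Dab2, Lama1, Mirlet7d, Mirlet7i and Igf2bp1 are given with values outside this rule. Percentiles rank the mean untreated signal among all probe sets. Alternatives were a second quantile normalization, median centring, dropping the dimmer probe sets, averaging probe sets, trend and robust options, the replicate number as a block, and leaving out each array.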

Additional observations from a re-analysis of the deposited data

How the results depend on the processing

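Lin28a, Trim71, Drosha, Tarbp2 and Xpo5 kept the sign of their difference under all 10 alternatives, between −0.40 and −0.28 for Lin28a and between −0.39 and −0.17 for Trim71. No member or other probe set was called under any of them (0 each), and the smallest adjusted p of a member was 0.371, for Lin28a with the dimmer probe sets left out. After a second quantile normalization the signs of Lin28b (−0.034), Dicer1 (−0.0096) and Tut7 (−0.017) turned and the medians became −0.16 for the members, −0.042 for nuclear partners and −0.031 for reported let-7 targets, while that of all represented genes was −0.0042. Averaging probe sets gave a nuclear partner median of 0.014. The shares of all genes that match the next counts are not given. The members lower at an unadjusted p under 0.05 numbered 2 with trend and robust options and 0 with the replicate block. Those lower without overlap numbered 4 to 7, a criterion that is easier to meet with 1 array left out. With 1 array left out the differences ran from −0.066 to 0.11 for Lin28b, −0.30 to 0.23 for Dgcr8, −0.20 to 0.011 for Ago1, −0.33 to 0.16 for Ago2, −0.22 to 0.020 for Xrn2 and −0.056 to 0.18 for Tut7. The list medians then ran from −0.0094 to 0.097 (nuclear partners), −0.022 to 0.11 (silencing effectors), −0.16 to 0.12 (tailing enzymes), −0.043 to 0.026 (let-7 targets), −0.014 to 0.092 (let-7 hairpins) and −0.024 to 0.22 (miR-290 targets). With the dimmer probe sets left out the hairpin median was −0.15, a value of Mirlet7d and Mirlet7i alone. The cause of the other shifts was not tested.

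Replicate numbers are shared by the groups, but the labels name no pairing, and same-numbered arrays' deviations from their group means correlated at −0.097 over probe sets. With the replicate block the p of Lin28a was 0.072 (adjusted p = 0.697 in limma) and no call changed.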

Other observations

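Reported targets of the miR-290 family, abundant microRNAs of mouse embryonic stem cells, stood mostly on the higher side with VPA. Of 11 names 10 were represented, 8 with a higher and 2 with a lower mean, and the median difference was 0.13 on the log2 scale beside 0.015 over all represented genes. Limma called 0 of them, with 1 higher and 0 lower at an unadjusted p under 0.05. Rbl2, a pocket protein that restrains the cell cycle, read 5.49 and 5.68 in untreated and 5.94 and 6.05 in VPA cells, a difference of 0.42 ± 0.13 (SE; unadjusted p = 0.021, adjusted p = 0.503). The caspase gene Casp2 differed by 0.36 ± 0.15 and the small GTPase gene Rhoc by 0.21 ± 0.11, each without overlap of the groups. The Hippo pathway kinase gene Lats2 differed the other way, by −0.23 ± 0.13, at a dim signal (percentile 52.9). Without untreated replicate 2 the median of these targets was −0.024.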
